A study of Mus musculus with 24 samples.

Results

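Late carcinoma of the PyMT mouse was compared with the normal mammary gland of the same age through the miRNAs of 3 tumors and 3 glands taken at week 12, which are 6 of the 24 small RNA libraries of the series. All animals were females on the FVB strain. The tumors came from mice that were heterozygous for MMTV-PyMT, a transgene in which the long terminal repeat of the mouse mammary tumor virus drives the polyoma middle T antigen in mammary epithelium, and the controls were FVB females without it. Week 12 was the stage at which primary tumors were late carcinomas and the lungs carried metastases, and only primary tumors were sequenced. Each library came from total RNA of snap-frozen bulk tissue, so that fewer cells of a type and less miRNA per cell cannot be told apart. The earlier stages, at weeks 6, 8 and 10, entered only the tests of whether the week 12 difference was unlike the earlier ones.

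miRNAs are short RNAs cut from hairpin precursors. Loaded into Argonaute, they pair with target mRNAs mainly through the seed, bases 2 to 8 counted from the 5′ end, and lower the stability and translation of those mRNAs. miRNAs with the same seed form a family and share many predicted targets, and hairpins that lie close together are often cut from 1 primary transcript. Many miRNAs are strongly tied to a cell type. The miR-200 family marks epithelium, where it holds down the repressors ZEB1 and ZEB2, while miR-143 and miR-145 mark smooth muscle and fibroblasts, miR-126 endothelium, and miR-1 and miR-133 striated muscle.

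The sequences below are those on which the results turn. They are the RefSeq mature sequences of the annotated main arms (mouse build GRCm38), 5′ to 3′, with the seed in capitals; the deposited counts do not tell the arms of a hairpin apart. The first set shows how little separates paralogs that were called in opposite directions at week 12.
miR-146a-5p: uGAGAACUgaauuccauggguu
miR-146b-5p: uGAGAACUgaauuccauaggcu
miR-27a-3p: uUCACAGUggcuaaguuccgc
miR-27b-3p: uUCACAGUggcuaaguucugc
miR-130a-3p: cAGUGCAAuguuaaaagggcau
miR-130b-3p: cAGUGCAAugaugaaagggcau
miR-23a-3p: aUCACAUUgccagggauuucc
The paralogs of the first 3 pairs share the seed. With positions counted from the 5′ end and the first-named member first, miR-146a and miR-146b differ at 2 bases, G18A and U21C, miR-27a and miR-27b at 1 base, C19U, and miR-130a and miR-130b at 2 bases, U11A and A13G. miR-23b is the partner of miR-23a. The second set shows epithelial miRNAs, in which 5 members of the miR-200 family carry 2 seeds that differ at 1 base.
miR-200b-3p: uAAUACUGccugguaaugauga
miR-200c-3p: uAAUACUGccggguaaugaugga
miR-429-3p: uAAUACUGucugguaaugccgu
miR-200a-3p: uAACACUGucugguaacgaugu
miR-141-3p: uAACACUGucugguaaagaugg
miR-183-5p: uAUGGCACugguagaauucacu
miR-96-5p: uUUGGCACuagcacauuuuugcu
miR-182-5p: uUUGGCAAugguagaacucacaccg
The last set holds miRNAs with large or abundant differences, the miR-92 seed group and the lower families miR-10 and miR-29.
miR-31-5p: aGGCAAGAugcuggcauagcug
miR-9-5p: uCUUUGGUuaucuagcuguauga
miR-92a-3p: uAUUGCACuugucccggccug
miR-92b-3p: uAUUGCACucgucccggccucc
miR-25-3p: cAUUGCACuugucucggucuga
miR-148a-3p: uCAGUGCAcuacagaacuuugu
miR-10a-5p: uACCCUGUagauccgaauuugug
miR-10b-5p: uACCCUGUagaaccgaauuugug
miR-29a-3p: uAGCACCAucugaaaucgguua
miR-29b-3p: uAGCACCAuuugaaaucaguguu
miR-29c-3p: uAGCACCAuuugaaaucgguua
miR-708-5p: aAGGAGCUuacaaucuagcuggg
miR-138-5p: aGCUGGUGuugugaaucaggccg
Reads of miR-10a and miR-10b differ at 1 base, U12A, as do those of miR-29a and miR-29c, C10U. How reads that fit more than 1 paralog were counted is not given in the sources used here, and values of such pairs carry that uncertainty.

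The 6 libraries held 1430795 to 3651238 counts, with 2332252 to 3651238 in normal and 1430795 to 2213972 in tumor, so that 3 counts corresponded to 0.922 to 2.15 CPM (counts relative to library size, here scaled by TMM factors). Replicate 1 of both tissues was sequenced in lane 1 and replicates 2 and 3 in lane 2, so lane was balanced between the groups. Some libraries stood apart. Normal replicate 1 held far more skeletal muscle miRNA than any other library, tumor replicate 3 far more miR-9, and replicate 2 of both tissues more miR-196a and miR-196b. Of 56 miRNAs placed only on chromosome X, 55 were listed at 0 at week 12 and in all 24 libraries, against 95 of 368 placed only on 1 autosome that were listed at 0 at week 12, so the table carries almost no information on X-linked miRNAs.

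Of 510 listed miRNAs, 335 had a count at week 12 and 237 had enough counts across the series to be tested. By edgeR's quasi-likelihood test, 120 of the 237 differed at an adjusted p below 0.05, a share of 50.6%, with 69 higher in tumor (29.1%) and 51 lower (21.5%). The 3 tumor and 3 normal libraries did not overlap in CPM for 64.1% of the tested miRNAs, 79 with tumor higher (33.3%) and 73 with tumor lower (30.8%). The median log2 fold change over all tested miRNAs was -0.19 with TMM scaling and -0.01 with library sizes alone, and the fold changes given here are relative to TMM scaling. Leaving out tumor replicate 2 left 29 lower calls and leaving out tumor replicate 3 left 24, with 74 calls in all.

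**Figure D1:**
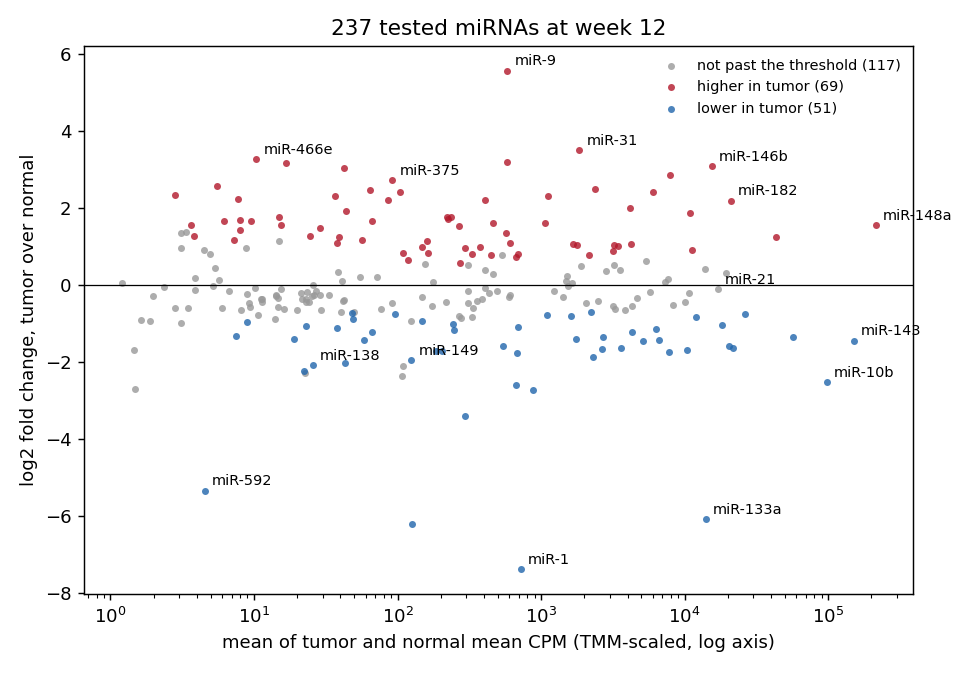
Log2 fold change of tumor over normal (vertical axis) against mean CPM (horizontal log axis) for the 237 tested miRNAs, 1 point each. Red points are the 69 miRNAs higher in tumor, blue the 51 lower and grey those not past the threshold; miR-9 and miR-31 lie at the top and the muscle miRNAs miR-1 and miR-133a at the bottom.

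The most counted miRNA changed with the tissue. miR-143, a miRNA of smooth muscle and fibroblasts, headed each normal library with 19.7% to 22% of counts, and miR-148a headed each tumor library with 29.5% to 38.5%. miR-148a stood at 242239, 323867 and 394978 CPM in the tumors and at 103127, 71609 and 148604 CPM in the glands. The groups did not overlap, and miR-148a was 2.97-fold higher in tumor (log2 fold change 1.57, SE 0.35, adjusted p = 0.00901 by edgeR). miR-143 stood at 62685, 119057 and 62406 CPM in tumor against 220772, 185856 and 254910 CPM in normal. It was 2.71-fold lower (log2 fold change -1.44, SE 0.34, adjusted p = 0.0106 by edgeR), with tumor replicate 2 the nearest to the glands. The other 3 most counted miRNAs of the tumors were miR-92a, miR-182 and miR-10a, and those of the glands miR-10b, miR-10a and miR-26a. The 10 most counted miRNAs took 67.6% ± 2.80 (SD, n = 3) of tumor counts and 71.0% ± 2.69 (SD, n = 3) of normal counts (exact permutation test, two-sided, p = 0.2, a test that cannot pass 0.05, since 0.1 is the smallest p that 3 against 3 allows).

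The miRNAs with the largest increases were miR-9, miR-31, miR-466e, miR-92b, miR-466c, miR-146b, miR-466b, miR-200b, miR-375, miR-466a, miR-429 and miR-18a. miR-31, which is known for effects on invasion and metastasis in breast cancer models, stood at 3159, 3508 and 3491 CPM in tumor against 306, 236 and 344 CPM in normal. The 3 tumors lay close together, and the difference was 11.5-fold (log2 fold change 3.52, SE 0.23, adjusted p = 0.000111 by edgeR). miR-92b, a seed relative of miR-92a and miR-25, stood at 1009, 967 and 1147 CPM in tumor against 121, 51.7 and 167 CPM in normal, and rose 9.18-fold. miR-375, a miRNA of hormone-responsive luminal and of neuroendocrine cells, stood at 169, 141 and 170 CPM against 22.4, 15.2 and 34.4 CPM, a 6.65-fold rise. For all 3 the highest gland lay below the lowest tumor, which was a condition for being named among the largest increases.

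miR-9, a miRNA known from the nervous system and as a repressor of E-cadherin in breast cancer cells, had the highest fold change but not an even one. It stood at 245, 97.7 and 3060 CPM in tumor and at 23.1, 19.5 and 28.7 CPM in normal. All 3 tumors exceeded all glands, yet tumor replicate 3 stood far above the other tumors. The log2 fold change was 5.57 (SE 1.30, adjusted p = 0.0105 by edgeR) with all libraries and 2.85 (adjusted p = 0.00458) without tumor replicate 3.

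The miRNAs with the largest decreases were miR-1, miR-133b, miR-133a, miR-592, miR-708, miR-338, miR-150, miR-10b, miR-215, miR-138, miR-615 and miR-149. miR-708 stood at 50.9, 59.2 and 44.5 CPM in tumor against 474, 372 and 778 CPM in normal, and fell 10.5-fold (log2 fold change -3.39, SE 0.34, adjusted p = 0.000356 by edgeR). miR-10b, which lies in the HoxD cluster and is known as a promoter of invasion in breast cancer cells, stood at 27075, 38081 and 22344 CPM against 138962, 154801 and 206380 CPM. It was the most counted of the 12, and it fell 5.72-fold (log2 fold change -2.51, SE 0.31, adjusted p = 0.000763 by edgeR). miR-338 stood at 233, 261 and 209 CPM against 2039, 679 and 1884 CPM, and fell 6.55-fold. miR-150, an abundant miRNA of mature lymphocytes, stood at 207, 243 and 122 CPM against 1178, 686 and 1563 CPM, and fell 5.98-fold. Normal replicate 2 was the lowest gland for both.

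miR-592 was nearly absent from the tumors, with 1 count in the 3 tumor libraries together and 73 in the 3 normal ones. Per library depth the normal level was 49.9 times the tumor level, with a 95% counting interval of 8.67 to 1996. The interval covers counting error only. The lower end of the ranking was set in part by single glands. miR-149 stood at 401 CPM in normal replicate 1 against 81.4 and 108 CPM in the other glands and 40.1, 58.6 and 56.0 CPM in the tumors, and without that gland its log2 fold change was -0.88 with an adjusted p of 0.0573 by edgeR. miR-215 stood at 9.77 CPM in normal replicate 2 against 50.7 and 48.8 CPM in the other glands, near the 7.70 to 7.89 CPM of the tumors.

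**Figure D2:**
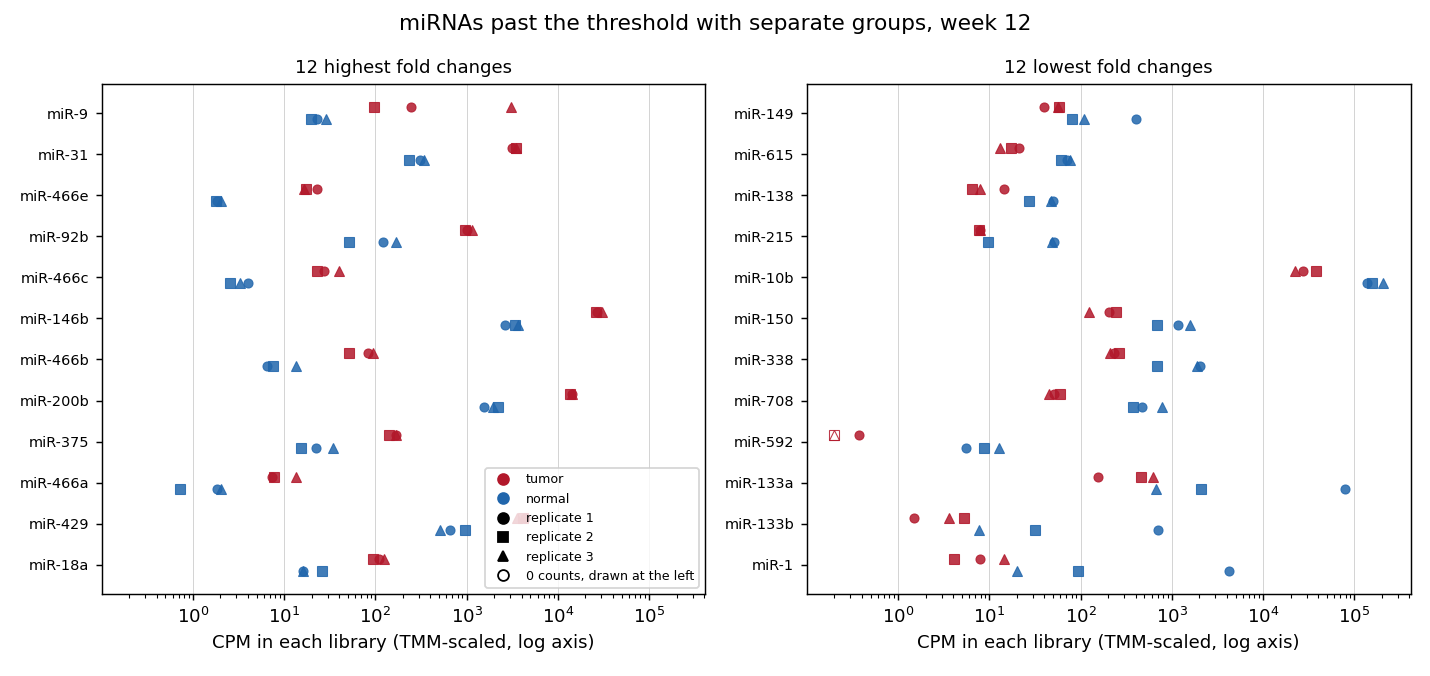
CPM of each of the 6 libraries (horizontal log axis) for the 12 largest increases and the 12 largest decreases among miRNAs past the threshold with separate groups. Tumor libraries are red and normal ones blue, marker shape gives the replicate, and open markers are libraries with 0 counts; the wide spread of miR-9 among tumors and of miR-1 and miR-133a among glands is visible.

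The 3 muscle miRNAs at the foot of the ranking rested on 1 gland for their size. miR-133a, a miRNA of skeletal and heart muscle, stood at 79855, 2080 and 678 CPM in the glands and at 153, 459 and 614 CPM in the tumors. Groups did not overlap, but normal replicate 3 lay just above the highest tumor. Without normal replicate 1 the log2 fold change of miR-133a went from -6.08 to -1.76 (adjusted p = 0.0584 by edgeR), that of miR-133b from -6.19 to -2.57 (adjusted p = 0.0292) and that of miR-1 from -7.37 to -2.72 (adjusted p = 0.0225). The summed level of the 6 listed muscle miRNAs was 84805, 2207 and 710 CPM in the glands and 163 to 634 CPM in the tumors. Of these, miR-206, miR-208b and miR-499 had counts but too few to be tested. With lane as a covariate, or without any 1 tumor, none of the 3 tested ones passed the threshold.

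Epithelial miRNAs rose together. Of 10 listed, 8 were higher in tumor, 1 was lower and 1 did not pass, against 29.1% higher and 21.5% lower over all tested miRNAs. The median log2 fold change was 2.21 against -0.19 over all tested miRNAs. The summed level of the 10 was 63153 to 76702 CPM in tumor and 15122 to 27430 CPM in normal. The members that rose were all 5 of the miR-200 family, from 3.45-fold for miR-141 to 7.36-fold for miR-200b, and the 3 of the miR-183/96/182 cluster. miR-200b stood at 14269, 13544 and 14146 CPM in tumor against 1559, 2214 and 1930 CPM in normal (log2 fold change 2.88, SE 0.22, adjusted p = 0.000117 by edgeR). Log2 fold changes were 2.21 to 2.88 for the seed of miR-200b, miR-200c and miR-429 and 1.78 to 2.32 for the seed of miR-200a and miR-141. miR-182, the most counted epithelial miRNA, stood at 27810, 34532 and 41217 CPM against 7757, 7090 and 7589 CPM, a 4.62-fold rise.

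The exceptions were miRNAs of stratified and basal epithelium. miR-205, which marks basal and myoepithelial cells, stood at 3880, 5642 and 2665 CPM in tumor and at 1560, 6522 and 1122 CPM in normal, so that 1 gland exceeded every tumor (log2 fold change 0.41, SE 0.64, adjusted p = 0.616 by edgeR). miR-203, which is abundant in keratinocytes, stood at 757, 1242 and 957 CPM in tumor against 1643, 7584 and 1552 CPM in normal (log2 fold change -1.87, SE 0.63, adjusted p = 0.0390 by edgeR). Normal replicate 2 was the high gland in both cases. Without it the log2 fold change of miR-205 was 1.60 (edgeR adjusted p = 0.0125) and that of miR-203 was -0.70 (edgeR adjusted p = 0.0490). The call of miR-203 was lost with library sizes alone, with DESeq2 and without any 1 tumor. The 2 luminal miRNAs listed, miR-375 and miR-342, were both higher in tumor, by 6.65-fold and 1.75-fold. The call of miR-342 was lost with the exact test of edgeR and without tumor replicate 1 or normal replicate 1.

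Stromal miRNAs fell together. Of 13 fibroblast and smooth muscle miRNAs, 12 were lower in tumor and none higher, with a median log2 fold change of -1.44. Over all tested miRNAs, 21.5% were lower. The summed level of the 13 was 95793 to 163180 CPM in tumor against 256830 to 377090 CPM in normal. The exception was miR-152, with a log2 fold change of -0.26. Members are not independent, since miR-199a-3p and miR-199b-3p have the same sequence and miR-199a shares a cluster with miR-214. miR-145, cut from the same transcript as miR-143, fell 2.98-fold, and miR-125b fell 3.09-fold. The miR-29 family, which targets collagen mRNAs, fell by 1.03 for miR-29a, 1.71 for miR-29b and 1.65 for miR-29c on the log2 scale. miR-126, the endothelial miRNA, stood at 11942, 10750 and 8150 CPM in tumor against 33523, 20752 and 37386 CPM in normal and fell 2.97-fold (adjusted p = 0.00420 by edgeR), while miR-221 and miR-222 were listed at 0. Both lie on chromosome X.

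The other cell-type lists held fewer or less stable calls, to be read against 29.1% of all tested miRNAs higher and 21.5% lower. The 3 erythroid miRNAs, miR-144, miR-451 and miR-486, were all lower in tumor, by 2.23-fold, 2.60-fold and 3.22-fold, and between 1 and 3 of them passed in every variant. Of 6 adipocyte miRNAs, 3 were lower and none higher, and miR-378 had a log2 fold change of -1.72 that became -0.88 without normal replicate 1. Of 4 tested leukocyte miRNAs, miR-150 and miR-146a were lower, while miR-142, found in all blood lineages, stood at 1367, 1472 and 1003 CPM in tumor against 1797, 1239 and 1661 CPM in normal and did not pass (log2 fold change -0.29, adjusted p = 0.348 by edgeR). miR-223 was listed at 0, but it lies on chromosome X, for which the table carries almost no information. The part of cell composition in the epithelial and stromal differences was not tested.

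**Figure D3:**
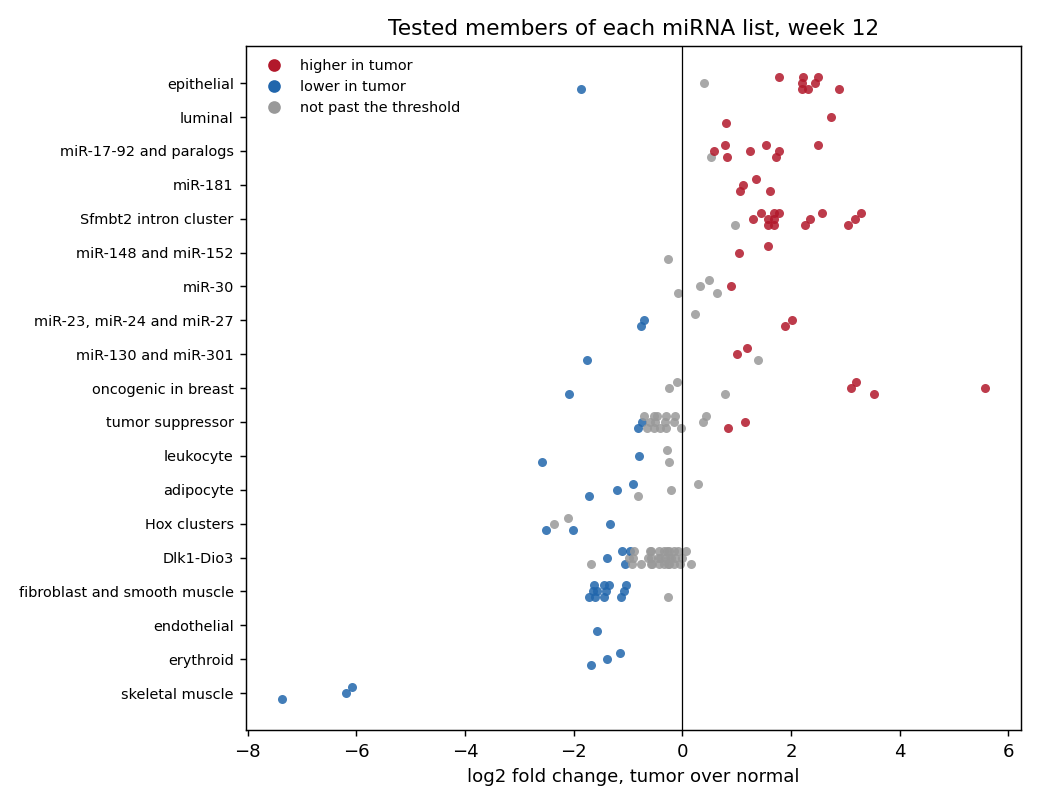
Log2 fold change of tumor over normal (horizontal axis) for the tested members of 19 miRNA lists (rows), 1 point per miRNA. Red points are higher in tumor, blue lower and grey not past the threshold; the epithelial, miR-17-92, miR-181 and Sfmbt2 rows lie almost wholly to the right and the stromal rows to the left.

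Among growth-related families, the miR-17-92 cluster and its paralogs on chromosome 5 rose, with 8 of 9 tested members higher in tumor and none lower. Over all tested miRNAs, 29.1% were higher. The median log2 fold change of the 9 was 1.25. The cluster is a target of MYC and carries several seeds. miR-18a rose most, from 16.3, 25.7 and 16 CPM in normal to 109, 94.1 and 123 CPM in tumor (5.62-fold). miR-19a rose 3.44-fold, miR-20a 3.29-fold, miR-17 2.90-fold, miR-92a 2.38-fold and miR-19b 1.72-fold. In the paralog cluster on chromosome 5, miR-93 rose 1.78-fold and miR-106b 1.51-fold, and miR-25 did not pass (log2 fold change 0.52, adjusted p = 0.0667 by edgeR). The further paralogs miR-106a, miR-18b, miR-20b and miR-363 had 0 counts in every week 12 library and could not be tested. miR-106a lies on chromosome X. Without tumor replicate 3, 5 of the 9 passed, miR-106b failed whichever library was left out, and miR-19b passed in 1 of those 6 fits. The 4 members of the miR-181 family, which is known for roles in lymphocyte development, all rose, by 2.08-fold to 3.07-fold, in every variant of the fit.

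Several miRNAs that are often named in breast cancer did not pass the threshold. miR-21 stood at 16953, 16939 and 15406 CPM in tumor and at 14975, 17180 and 20384 CPM in normal, with a log2 fold change of -0.09 (SE 0.21, adjusted p = 0.725 by edgeR). miR-155 and miR-210 did not pass either. Of the 8 miRNAs listed as oncogenic in breast, 4 were higher (miR-9, miR-31, miR-92b and miR-146b) and miR-138 was lower. Among all tested miRNAs, 29.1% were higher and 21.5% lower. The label is only that of the list. The paper cites earlier reports in which miR-31 held back metastasis and miR-146 held back migration and invasion. In the PyMT mice themselves, the paper reports both miR-31 and miR-146b as higher in tumor at every stage. For miR-31 the paper proposes differences between breast cancer subtypes as the probable reason for the contrast, which was not tested here. Of 20 tested miRNAs listed as tumor suppressors, 16 did not pass, among them all 8 let-7 members, whose log2 fold changes ran from -0.53 to 0.43. miR-34a and miR-15b were higher in tumor, by 2.22-fold and 1.79-fold, and miR-26a and miR-101a lower, by 1.68-fold and 1.75-fold, and miR-26a passed in 2 of the 6 fits that left out a library. The calls among the 20 varied with the fit. In the single fit of all 24 libraries 3 were higher and 8 lower, and with 10 counts in each library 2 were higher and 5 lower. Without tumor replicate 3, 1 was higher and none lower. A p that misses the threshold does not show that these levels were equal.

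Hairpins were then grouped by genomic cluster. On the mm9 annotation, 35 clusters of hairpins lying within 10 kb on 1 strand held 2 or more tested miRNAs. In 15 of them every tested member was called in 1 direction, in 10 some were called in 1 direction and in 10 none was called, and in no cluster were members called in opposite directions; of all 237 tested miRNAs, 50.6% were called. The cluster with the most calls was the Sfmbt2 intron on chromosome 2 (10393881 to 10438791, plus strand), a block of rodent-specific miRNA repeats. Of its 14 tested members, 13 were higher and 1 did not pass. Of 38 listed miRNAs with names of that block, 15 were tested and 14 rose, none fell, with a median log2 fold change of 1.69. All were scarce: the summed level of the 38 was 226 to 337 CPM in tumor and 56.8 to 66.4 CPM in normal. miR-466b, with 9 annotated hairpins in the intron, stood at 83.2, 50.9 and 94.0 CPM in tumor against 6.46, 7.60 and 13.5 CPM in normal and rose 8.27-fold (adjusted p = 0.000894 by edgeR). Members share long stretches of sequence, so that their counts are not independent. The filter needed enough counts in only as many libraries as 1 group holds. Scarce members could thus be tested through the tumors alone, which favours rises among those tested. Where each library had to hold 10 counts, 4 were tested and all 4 passed, and of the 15, 9 passed without tumor replicate 1. With no filter, 27 were tested, of which 15 were higher and none lower.

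The imprinted Dlk1-Dio3 block on chromosome 12 was different. Of 46 listed miRNAs, 37 were tested, 33 did not pass, 4 were lower and none was higher, with a median log2 fold change of -0.43. Over all tested miRNAs, 21.5% were lower and 29.1% higher. miR-127, its most counted member, stood at 9763, 8048 and 7912 CPM in tumor against 10410, 14125 and 10018 CPM in normal and did not pass (log2 fold change -0.43, adjusted p = 0.144 by edgeR). The lower calls were miR-136, miR-329, miR-300 and miR-154, and none of the 37 passed with library sizes alone or without tumor replicate 2, tumor replicate 3 or normal replicate 1. Of 5 miRNAs that lie in Hox clusters, miR-10a, miR-10b and miR-615 fell. The others, miR-196a and miR-196b, were by far highest in replicate 2 of both tissues. miR-196a stood at 1.86, 103 and 1.44 CPM in tumor and at 2.77, 537 and 2.46 CPM in normal, and neither passed. With the replicate number as a block both were called lower, with adjusted p = 0.00924 for miR-196a and 0.00163 for miR-196b by edgeR. The replicate numbers were, however, not taken to pair the week 12 samples. Outside replicate 2, miR-196a had only 5 and 2 counts in tumor and 9 and 6 in normal. miR-196b had 8 and 4 counts there in tumor and 94 and 9 in normal. When a library was left out, the log2 fold change of miR-196a ran from -6.74 to 3.72 and that of miR-196b from -5.92 to 1.32, with no call.

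miRNAs were also grouped by name, as miR-23a with miR-23b, whether or not their hairpins lie at the same locus. Of 31 such families with 2 or more tested members, 12 had every member called in 1 direction and 10 had some called in 1 direction. None was called in 5, and 4 held members called in opposite directions. Over all 237 tested miRNAs, 50.6% were called, 29.1% higher and 21.5% lower. The 4 families, which were singled out for that pattern, were miR-146, miR-23, miR-27 and miR-130.

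miR-146b, in an intron of Tmem180 on chromosome 19 (46417252 to 46417360, plus strand), stood at 26806, 26006 and 30238 CPM in tumor against 2637, 3423 and 3659 CPM in normal. It rose 8.55-fold (log2 fold change 3.10, SE 0.23, adjusted p = 0.000117 by edgeR). miR-146a, on chromosome 11 (43187899 to 43187963, minus strand) with no host gene, is a feedback inhibitor of NF-kB signalling. It stood at 1285, 1216 and 1036 CPM in tumor against 2292, 1476 and 2382 CPM in normal and fell 1.74-fold (log2 fold change -0.80, SE 0.24, adjusted p = 0.0273 by edgeR). The call of miR-146a was lost with library sizes alone, with the exact test of edgeR and without tumor replicate 2, tumor replicate 3, normal replicate 1 or normal replicate 3. The ratio of miR-146b to miR-146a counts, which no scaling changes, was 20.9, 21.4 and 29.2 in tumor and 1.15, 2.32 and 1.54 in normal. miR-146b thus made up 95.4% to 96.7% of the pair in tumor and 53.5% to 69.9% in normal.

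The miR-23 and miR-27 families split by locus. miR-23b and miR-27b lie side by side in an intron of 2010111I01Rik on chromosome 13 (63401780 to 63402104, plus strand), and miR-23a and miR-27a lie with a miR-24 hairpin on chromosome 8 (86732417 to 86732820, plus strand). miR-27b stood at 15036, 16797 and 19525 CPM in tumor against 5211, 4084 and 4553 CPM in normal, a 3.71-fold rise. miR-23b stood at 6111, 7383 and 6553 CPM against 1854, 1539 and 1559 CPM, a 4.05-fold rise. Their chromosome 8 paralogs went the other way. miR-27a stood at 789, 758 and 882 CPM against 1672, 932 and 1534 CPM (log2 fold change -0.77, adjusted p = 0.0389 by edgeR), and miR-23a at 1942, 1509 and 1667 CPM against 3107, 2000 and 3189 CPM (log2 fold change -0.70, adjusted p = 0.0418). Both lower calls were lost with library sizes alone, with the exact test of edgeR, with lane as a covariate and without tumor replicate 2, tumor replicate 3, normal replicate 1 or normal replicate 3. The ratio of miR-23b to miR-23a was 3.15, 4.89 and 3.93 in tumor and 0.597, 0.770 and 0.489 in normal, so that the more counted paralog changed between the tissues. That of miR-27b to miR-27a was 19.1, 22.2 and 22.1 against 3.12, 4.38 and 2.97. miR-24, which is known to be cut from hairpins at both loci, did not pass (log2 fold change 0.23, adjusted p = 0.356 by edgeR).

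miR-130a, on chromosome 2 (84581272 to 84581335, minus strand), is known from endothelial cells. It stood at 310, 374 and 248 CPM in tumor against 888, 916 and 1351 CPM in normal and fell 3.39-fold (log2 fold change -1.76, SE 0.27, adjusted p = 0.00171 by edgeR). miR-130b, on chromosome 16 (17124154 to 17124235, minus strand), stood at 79.5, 78.1 and 76.8 CPM against 35.0, 29.7 and 38.1 CPM and rose 2.28-fold (log2 fold change 1.19, SE 0.22, adjusted p = 0.00437 by edgeR). Both calls held in every variant of the fit. The summed level of the pair fell from 922, 946 and 1389 CPM in normal to 390, 452 and 324 CPM in tumor, since miR-130a was the more counted in all 6 libraries.

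**Figure D4:**
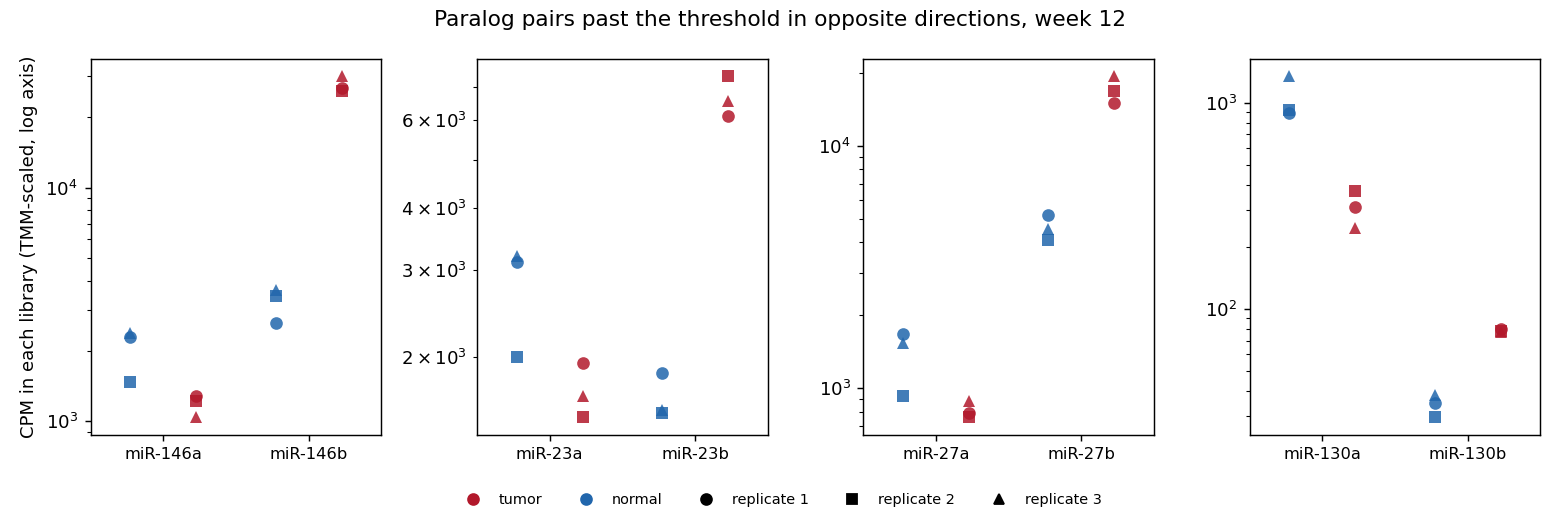
CPM of each library (vertical log axis, a separate scale per panel) for the 4 paralog pairs called in opposite directions, normal in blue and tumor in red, marker shape giving the replicate. In each panel 1 paralog lies lower and the other higher in tumor with no overlap between the groups.

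The last question was whether week 12 differed from the stages before it. The tumor against normal difference at week 12 was unlike that at week 10 for 0 of 237 miRNAs (0%) by the interaction test of edgeR, with 5 at an unadjusted p below 0.05. Against the mean of weeks 6, 8 and 10 it differed for 1 miRNA (0.422%), with 12 at an unadjusted p below 0.05. This was miR-138. With all 24 libraries scaled together, it stood at 15.3, 7.04 and 8.30 CPM in the week 12 tumors and at 52.8, 30.7 and 47.2 CPM in the week 12 glands. Earlier levels were 14.8 to 27.4 CPM in tumor and 16.6 to 37.8 CPM in normal. The groups were apart at weeks 10 and 12 and overlapped at weeks 6 and 8. Within-week log2 fold changes were 0.03, -0.22, -0.63 and -2.08 at weeks 6, 8, 10 and 12, and the week 12 difference exceeded the mean of the others by -1.80 (SE 0.35, adjusted p = 0.0143 by edgeR). The adjusted p was 0.105 with library sizes alone and 0.00275 to 0.116 when a week 12 library was left out. The log2 fold change of miR-146b was 3.09, 3.37, 3.10 and 3.10 over the 4 weeks. That of miR-10b was -0.91, -1.99, -1.95 and -2.51, and its week 12 value departed from the mean of the others by -0.89 (SE 0.31, adjusted p = 0.428 by edgeR), which did not pass.

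**Figure D5:**
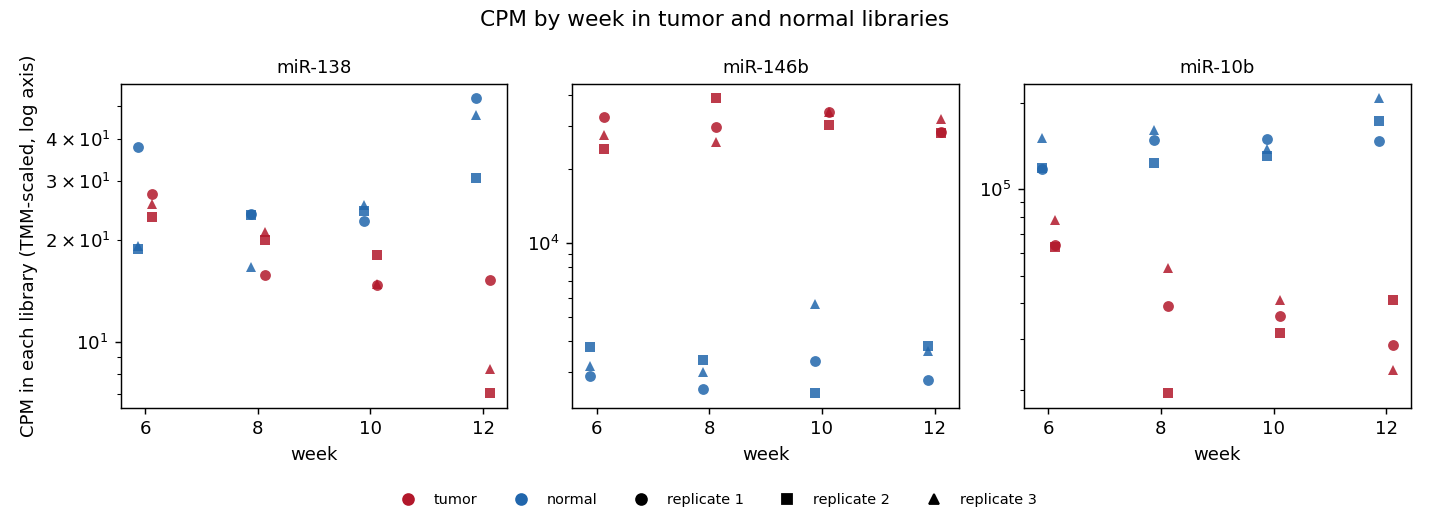
CPM of each library (vertical log axis) at weeks 6, 8, 10 and 12 (horizontal axis) for miR-138, miR-146b and miR-10b, tumor in red and normal in blue, marker shape giving the replicate. Tumor and normal levels of miR-138 overlap at weeks 6 and 8 and are apart at weeks 10 and 12, while those of miR-146b are apart at every week.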

How the data were processed

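Small RNA libraries were made with the Illumina TruSeq small RNA kit from total RNA of snap-frozen tissue. The authors removed adaptors, kept reads of the length of mature miRNAs, aligned them with Bowtie and counted those lying mostly within a miRBase miRNA, and the deposited values are raw read counts per miRNA. Per the labels the build was mm9, whereas the methods of the study name mm10, so positions were taken from the mm9 annotation (GENCODE vM1; 447 of 510 listed miRNAs matched). The handling of reads that fit several hairpins is not given in the sources used here.

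Counts were analysed with edgeR 4.0.16 (TMM scaling, filterByExpr over all 24 libraries, quasi-likelihood test, Benjamini-Hochberg adjustment over 237 miRNAs, threshold 0.05) on the 6 week 12 libraries, without covariates. Interaction contrasts used all 24 libraries. Samples were grouped by their labels, and each animal gave 1 library. The fits were tested on simulated data. Alternatives covered scaling, test (edgeR's exact test, DESeq2 1.42.0), filters, lane, replicate block and leaving out each library.

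Named miRNAs were the 12 highest and 12 lowest fold changes past the threshold with separate groups, the 5 most counted in each tissue and the most counted members of the lists. The comparison and the lists were chosen with earlier results of these data known, and paralog pairs and libraries standing apart after their values were seen. Of 47 mature sequences looked up in RefSeq (GRCm38), 43 were matched. Totals of 1430795 to 3651238 counts per library set the precision, and intervals cover counting error only.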

Additional observations from a re-analysis of the deposited data

Results flagged for a closer look

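miR-138 had a tumor against normal log2 difference at week 12 that departed from the mean of weeks 6, 8 and 10 by -1.80 (SE 0.35, adjusted p = 0.0143 by edgeR's interaction test). It was singled out because the difference between the stages itself passed the test. In the week 12 libraries its level was lower in 3 of 3 tumors than in every gland, as held for 30.8% of all tested miRNAs. The departure was -1.77 (adjusted p = 0.0226) with DESeq2 size factors and -1.47 (adjusted p = 0.105) with library sizes alone. Against week 10 alone the departure was -1.44 (SE 0.43, adjusted p = 0.779).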

How the results depend on the processing

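The 120 calls at week 12 became 118 with DESeq2 size factors, 105 with library sizes alone, 115 with DESeq2 (3 adjusted p-values not given), 100 with edgeR's exact test, 104 with lane as a covariate, 135 in a single fit of all 24 libraries and 95 where the log2 fold change also had to reach 1 in size. Filters gave 118 calls of 335 miRNAs with no filter, 113 of 190 with 10 counts in each library and 122 of 220 with a filter on the 6 libraries. Leaving out 1 library gave 74 to 120 calls, 50 to 68 higher and 24 to 52 lower, with the lowest counts without tumor replicate 3; without tumor replicate 2, 29 were lower. No named or listed miRNA that was called changed direction under these variants. With the replicate number as a block 117 were called, 111 of them also called without it. Same-numbered week 12 libraries correlated at r = 0.03, 0.42 and 0.07 in their deviations from the group means, and only those numbered 2 correlated best with each other, so the numbers were not taken to pair the week 12 samples; at weeks 6, 8 and 10 same-numbered libraries correlated at 0.20 to 0.82. Under the block all 5 Hox miRNAs and 4 adipocyte miRNAs were lower.

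The count of miRNAs whose week 12 difference departed from the mean of the earlier weeks, 1 with TMM scaling, was 2 with DESeq2 size factors, 0 with library sizes alone and 1 with the replicate block. It was 0 to 1 when 1 library was left out, with 0 without tumor replicates 2 or 3 or normal replicates 1 or 3. Against week 10 alone it was 0 in every variant. A floor of 3 counts, or 0.922 to 2.15 CPM, was chosen for detection, and below it a miRNA was not taken as detected. Background itself was not measured. The causes of these changes were not tested.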

Other observations

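Outside the lists and the named miRNAs, 20 further miRNAs were higher in tumor and 8 lower; those given here were chosen after their values were seen. miR-298 and miR-296, neighbours in the imprinted Gnas region of chromosome 2, were both higher. miR-298 stood at 177, 117 and 235 CPM in tumor against 24.6, 26.8 and 47.1 CPM in normal (5.37-fold), and miR-296 at 63.5, 42.0 and 100 CPM against 18.1, 9.41 and 26.6 CPM (3.79-fold). miR-191, often used as a reference miRNA in quantitative PCR, stood at 13816, 13499 and 16794 CPM in tumor against 7762, 5455 and 10157 CPM in normal (1.89-fold higher, adjusted p = 0.0242 by edgeR). miR-423 and miR-484, used in the same way, were 2.06-fold and 2.12-fold higher.

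miR-139 was the most reduced of the 8, at 76.5, 117 and 64.6 CPM in tumor against 318, 206 and 322 CPM in normal (3.28-fold lower, adjusted p = 0.00421 by edgeR). miR-218, cut from the introns of the Slit genes, was 2.30-fold lower. For each of these miRNAs the 3 tumor and 3 normal libraries did not overlap, as held for 64.1% of all tested miRNAs.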
